A study of Mus musculus with 18 samples.

Results

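A set of 10 genes of redox and ferroptosis defence were followed in B16F10 melanomas that had or had not received a manganese framework. They were Hmox1, Nqo1, Srxn1, Txnrd1, Gclc, Gclm, Slc7a11, Gpx4, Fth1 and Acsl4. The genes were taken by name from the table of gene expression and are 10 of its 41079 genes. The question was how they compare between the groups given the framework and the groups not given it.

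B16F10 is a mouse melanoma line. It was grown under the skin of female C57BL/6 mice, at the right flank, from 100000 cells by the sample records, which give no age. From day 6, at a volume of about 50 mm3, the tumors were injected every 2 days, and they were taken 48 h after the last injection for poly(A) RNA sequencing. There were 18 tumors, 3 in each of 6 groups.

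The 9 tumors without the framework had received PBS, the ribozyme PS473 alone (Free PS473), or PS473 carried by cationic polymers (PS473@CPs). PS473 is a Pistol ribozyme made to cut the mRNA of the checkpoint ligand PD-L1. The 9 framework tumors had received the empty framework (NKMOF-101-[Mn]), the framework with M5, a ribozyme that cannot cut (M5@NKMOF-101-[Mn]), or the framework with PS473 (PS473@NKMOF-101-[Mn]). NKMOF-101-[Mn] is a crystalline solid of manganese ions joined by squarate. The titles of the last group name the framework NKMOF-102, while the other records of those tumors name NKMOF-101.

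The transcription factor NRF2 raises many antioxidant genes when its inhibitor KEAP1 is modified by electrophiles, through a short DNA element called the antioxidant response element. Cells build glutathione from cysteine that the SLC7A11 transporter brings in as cystine, and GPX4 uses glutathione to reduce lipid peroxides. Ferroptosis is the iron-dependent death that follows when these peroxides accumulate. HMOX1 frees iron from heme, ferritin stores iron, and ACSL4 makes the polyunsaturated lipids that are peroxidized, so the last acts for ferroptosis and not against it.

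The core of the antioxidant response element, TGACNNNGC, was searched on both strands in RefSeq promoter windows of GRCm38.p6, which run from 250 bases before to 50 bases after a gene's start. Of all 32851 windows, 12.4% held a match. Windows were at hand for 8 of the 10 genes, some with several starts, and 3 of their 14 windows held a match. None was at hand for Hmox1 and Gclc, so these genes were not searched. The matched stretches are shown because they are the letters in these promoters that the factor's element shares. Each is written along the gene's strand with the match in capitals, and each match reads as the core on the opposite strand.
Srxn1, chr2:152105542-152105571: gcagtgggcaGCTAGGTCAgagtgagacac
Gclm, chr3:122245413-122245442: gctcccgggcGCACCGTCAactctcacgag
Txnrd1, chr10:82859104-82859133: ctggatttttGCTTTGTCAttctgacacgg

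With the annotated start as 0, the match lay at 28 to 36 in Srxn1, at -134 to -126 in Gclm and at -92 to -84 in Txnrd1. A match is a string of letters and not a measured binding site, and elements farther from the start lie outside these windows.

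The values are FPKM, fragments scaled by gene length in kilobases and by the total assigned in the tumor. Between 17212000 and 28401000 fragments stood behind each tumor, as estimated from the steps between low values. All 7 melanocyte markers were tested, and they summed to 4835 to 7645 FPKM. Other tissue varied widely between tumors of one group. Summed macrophage markers ran from 93.5 to 538 FPKM without the framework and from 150 to 570 FPKM with it, skin epithelium from 0.437 to 4622 and from 0.511 to 1065, and erythroid genes from 45.1 to 13894 and from 41.3 to 5835. Genes under 2000 bases lay high in PBS 1 and Free PS473 3, by a median of 0.168 and 0.235 on the log2 scale. Cd274, which encodes PD-L1, was at 9.74, 17.0 and 32.9 FPKM with PS473@NKMOF-101-[Mn] and at 12.3, 15.7 and 21.5 FPKM with PBS, so the groups overlapped.

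The 10 genes spanned a wide range of levels. Fth1, the ferritin heavy chain, had a mean of 683 ± 127 FPKM (SD, n = 18), above 99.5% of the 12357 genes whose mean reached 1 FPKM. Gpx4 followed at 141 ± 40.0 FPKM, and Hmox1 and Txnrd1 at 67.9 ± 32.5 and 65.1 ± 5.24 FPKM. Gclm, Gclc, Acsl4 and Srxn1 lay between 4.35 and 16.4 FPKM. Nqo1 and Slc7a11 were near the bottom, at 0.774 ± 0.186 and 0.694 ± 0.316 FPKM, from 47 to 114 and from 43 to 293 fragments per tumor.

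**Figure D1:**
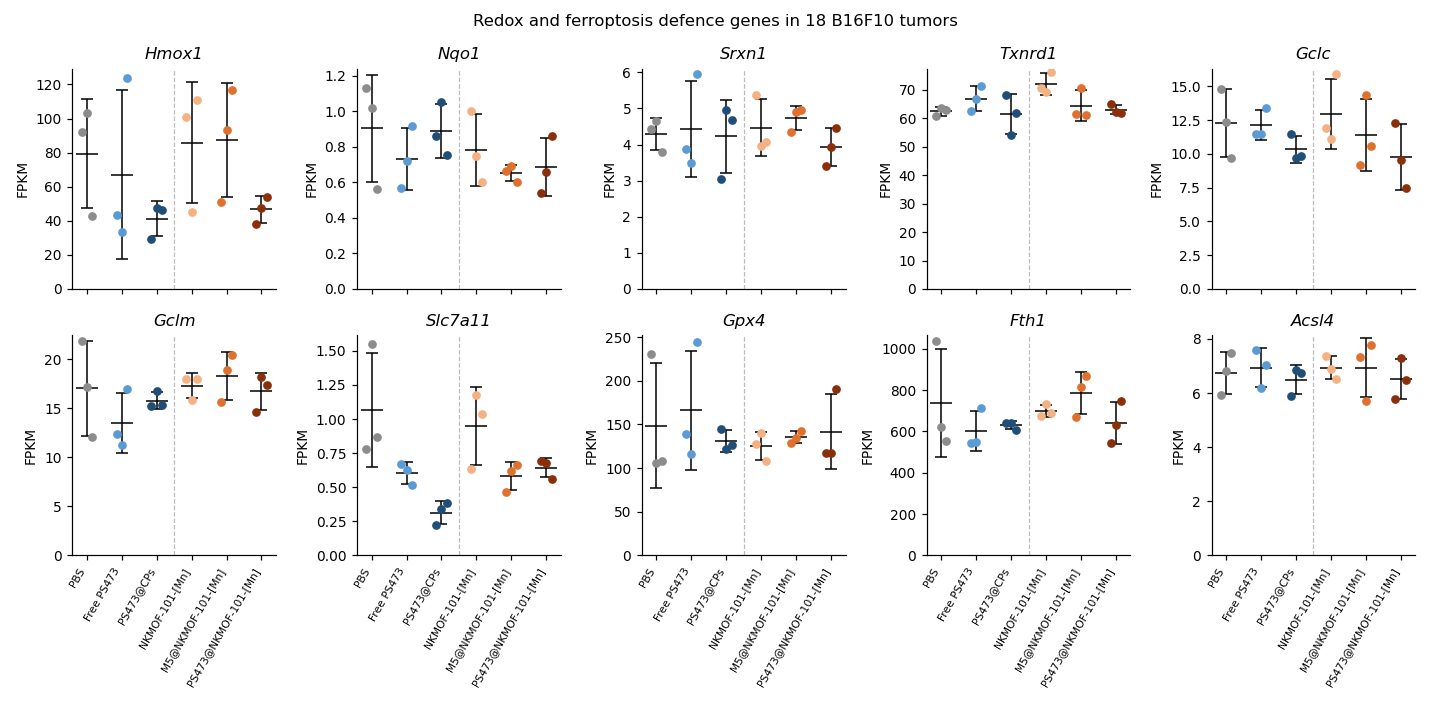
FPKM (vertical axis, from 0) of the 10 genes in each tumor, by group; points are tumors, horizontal bars with whiskers are the mean ± SD of 3 tumors, and the dashed line separates groups without the framework (left) from groups with it (right). Both sides overlap in all 10 panels, and the PS473@CPs tumors sit lowest for Slc7a11, between 0.223 and 0.381 FPKM.

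No gene of the set passed the test between framework tumors and the others. Expression was compared as log2(FPKM + 1) with limma, and a gene was called at a Benjamini-Hochberg adjusted p under 0.05 and a change of more than 2-fold. None of the 10 was called, and over all 12357 genes 0% were called in this contrast, where the smallest adjusted p in limma was 0.9. At an unadjusted p under 0.05, 4.56% of all genes passed (362 higher and 202 lower) and 0 of the 10 did. Of the 10 estimates 7 were above 0 and 3 below, and every 95% interval included 0. The median over the 8 genes whose mean reached 1 FPKM was 0.04, against -0.01 over all genes tested.

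**Figure D2:**
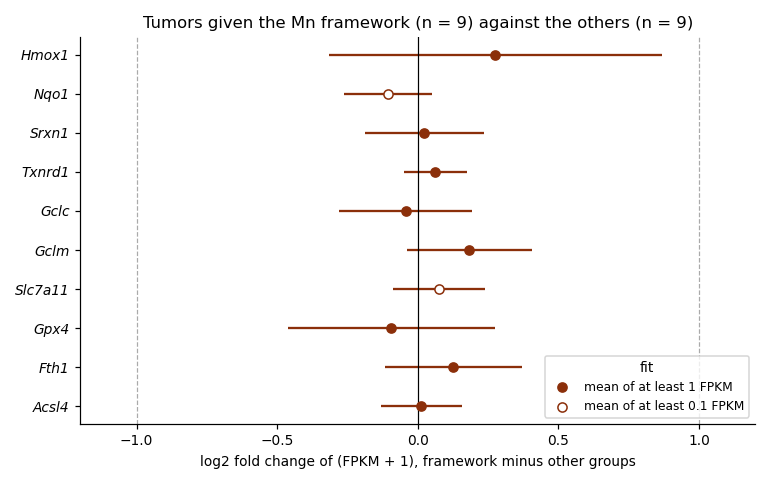
Log2 fold change of FPKM + 1 (horizontal axis) of each gene in the 9 framework tumors against the 9 others, with 95% confidence intervals from limma; filled points come from the fit of genes averaging 1 FPKM or more and open points from that of genes averaging 0.1 FPKM or more, and dashed lines mark 2-fold. Every interval includes 0 and lies within 2-fold in both directions.

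Hmox1, the inducible heme oxygenase and a classical NRF2 target, had the largest SD within groups on the log2(FPKM + 1) scale, which compresses scarce genes. From lowest to highest tumor it spanned 4.19-fold in FPKM, against 6.96-fold for Slc7a11. It was at 92.2, 103 and 43.0 FPKM in the PBS tumors, at 43.3, 33.6 and 124 in Free PS473, and at 29.6, 47.7 and 46.6 in PS473@CPs. Of the framework groups, NKMOF-101-[Mn] tumors had 101, 45.3 and 111 FPKM, M5@NKMOF-101-[Mn] tumors 51.2, 93.5 and 117, and PS473@NKMOF-101-[Mn] tumors 38.3, 47.7 and 54.1. Most groups held both tumors at 51.2 FPKM or less and tumors at 92.2 FPKM or more, while PS473@CPs and PS473@NKMOF-101-[Mn] held only tumors at 54.1 FPKM or less. The framework contrast was 0.28 on the log2 scale (SE 0.28, 95% interval -0.32 to 0.87), which spans 0.803-fold to 1.83-fold. Its SD within groups, 0.643 on the log2 scale, was larger than that of 94.4% of the genes tested. Without PBS 1 and Free PS473 3 the contrast was 0.51 (limma adjusted p = 0.814), and without PBS 3 it was 0.15. PBS 1 and Free PS473 3 carried no framework and were high for Hmox1, so leaving them out was bound to raise the contrast.

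Srxn1, which encodes the sulfiredoxin that restores oxidized peroxiredoxins, moved little between groups. Its values ran from 3.06 to 5.96 FPKM without the framework and from 3.40 to 5.37 FPKM with it, and the contrast was 0.02 (SE 0.10). The highest tumor was Free PS473 3, which was also the highest for Hmox1, and the lowest was PS473@CPs 1, which was the lowest for Hmox1.

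Txnrd1, the cytosolic thioredoxin reductase, was the steadiest of the 8 better expressed genes, with an SD within groups of 0.0978 that exceeded that of only 6.54% of genes. The NKMOF-101-[Mn] tumors were at 70.6, 69.3 and 76.4 FPKM and the PBS tumors at 60.8, 63.8 and 63.0 FPKM. All 3 tumors with the empty framework thus lay above all PBS tumors, as they did for 4.52% of genes. The log2 difference was 0.20 (SE 0.09, unadjusted p = 0.043, limma adjusted p = 1), at a threshold that 1.46% of genes passed in this comparison. In M5@NKMOF-101-[Mn] (61.5, 70.7 and 61.2 FPKM) and PS473@NKMOF-101-[Mn] (64.9, 62.4 and 61.8 FPKM) the values overlapped those of PBS, and over all framework tumors the contrast was 0.06 (SE 0.05).

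Nqo1, the quinone reductase often used as a marker of NRF2 activity, was scarce. Its mean was 0.707 ± 0.145 FPKM with the framework and 0.841 ± 0.206 FPKM without it (SD, n = 9 each). The values ran from 0.539 to 1.00 and from 0.563 to 1.13 FPKM, so the sides overlapped, and the contrast was -0.11 (SE 0.07, limma adjusted p = 0.887 in the fit of 18312 genes averaging 0.1 FPKM or more). With a pseudocount of 0.1 in place of 1, which compresses low values less, the contrast was -0.21, and with quantile normalization it was -0.05.

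Gclc and Gclm encode the catalytic and modifier subunits of glutamate-cysteine ligase, which makes the first bond of glutathione. Gclc was at 11.4 ± 2.62 FPKM with the framework and 11.6 ± 1.75 FPKM without it, with a contrast of -0.04 (SE 0.11) whose sign changed under other settings. Gclm had the smallest unadjusted p of the 10 genes in the framework contrast. It was at 18.0, 15.8 and 18.0 FPKM in NKMOF-101-[Mn], at 15.6, 18.9 and 20.4 in M5@NKMOF-101-[Mn], and at 14.6, 18.2 and 17.4 in PS473@NKMOF-101-[Mn]. Without the framework it was at 21.8, 17.2 and 12.1 FPKM in PBS, at 12.4, 11.2 and 17.0 in Free PS473, and at 15.2, 16.8 and 15.3 in PS473@CPs. The 3 lowest tumors carried no framework, but so did the highest, PBS 1. The contrast was 0.18 (SE 0.10, unadjusted p = 0.0997, limma adjusted p = 0.9). It was 0.30 (SE 0.08, limma adjusted p = 0.653) without PBS 1 and Free PS473 3 and 0.11 without PBS 3. PBS 1 and Free PS473 3 were the highest of their groups, so leaving them out was bound to raise the contrast.

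Slc7a11, the cystine transporter that is blocked to induce ferroptosis, had more pairs of groups without overlap than any other gene of the set, and its lowest and highest groups, PS473@CPs and PBS, had both received no framework. The PBS tumors were at 0.777, 1.55 and 0.872 FPKM, the Free PS473 tumors at 0.674, 0.625 and 0.518, and the PS473@CPs tumors at 0.223, 0.339 and 0.381. The NKMOF-101-[Mn] tumors were at 0.632, 1.18 and 1.04 FPKM, the M5@NKMOF-101-[Mn] tumors at 0.466, 0.620 and 0.661, and the PS473@NKMOF-101-[Mn] tumors at 0.693, 0.679 and 0.562. All 3 PS473@CPs tumors were below the other 15, a pattern that 11 of the 18312 genes (0.0601%) showed. It was looked for after the values had been seen, and another group could have been picked. The share thus does not measure how unusual the pattern was. Trib3, named below, was another of the 11 genes, while Pck2, named beside it, was not. Pck2 was at 7.08, 6.38 and 9.95 FPKM in PS473@CPs and at 8.01 FPKM in PBS 3. Whether Slc7a11 and Trib3 share a cause was not tested. Trib3 was at 8.66, 10.4 and 12.1 FPKM in PS473@CPs and at 14.8 FPKM or more in the other 15. Below PBS alone, with no overlap, PS473@CPs tumors lay for 4.3% of genes.

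The mean of Slc7a11 was 3.4 times higher in PBS than in PS473@CPs on the FPKM scale. On the log2(FPKM + 1) scale the difference was -0.64 (SE 0.13, unadjusted p = 0.000239), but the limma adjusted p was 1, and 2.54% of genes passed an unadjusted p under 0.05 there. The difference was -0.47 without PBS 2, the highest tumor, and -1.46 with a pseudocount of 0.1. The PS473@CPs values rested on an estimated 43, 81 and 104 fragments. The groups Free PS473, M5@NKMOF-101-[Mn] and, last, PS473@NKMOF-101-[Mn] also lay below PBS without overlap, as they did for 2.13%, 4.34% and 2.7% of genes. Their differences from PBS were -0.35, -0.37 and -0.31 (SE 0.13 each), with unadjusted p values of 0.0189, 0.0135 and 0.0318 and adjusted p values of 0.993 or above in limma. In these comparisons 2.47%, 2.23% and 2.58% of all genes had an unadjusted p under 0.05. These comparisons share the PBS tumors. PS473@NKMOF-101-[Mn] was above PS473@CPs by 0.32 (SE 0.13, unadjusted p = 0.0265, limma adjusted p = 0.993, 2.58% of genes under 0.05). Over all 6 groups the unadjusted p was 0.00328 and the limma adjusted p = 1, with 2.48% of genes under 0.05. The framework contrast itself was 0.08 (SE 0.08), and 0.22 with a pseudocount of 0.1.

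Gpx4, the selenoprotein that reduces lipid peroxides, was even across most tumors and high in 3. Of the 18 tumors 15 lay between 106 and 145 FPKM, and the exceptions were PBS 1 at 231, Free PS473 3 at 244 and PS473@NKMOF-101-[Mn] 3 at 191 FPKM. The mean was 134 ± 24.0 FPKM with the framework and 148 ± 52.2 FPKM without it, with a contrast of -0.10 (SE 0.17). It was 0.13 without PBS 1 and Free PS473 3, the tumors in which short genes lay high. Over all 18 tumors Gpx4 followed the median deviation of genes under 2000 bases (Pearson r = 0.85, permutation p = 0.00014, adjusted 0.0168). Its Spearman rho was 0.79 (permutation p = 0.00014, adjusted 0.0168), and within groups r was 0.90. Since the 3 high tumors stood apart, the relation was also taken within the other 15. These were chosen by their level of Gpx4, which narrows its range. There Gpx4 followed that measure (Pearson r = 0.69, permutation p = 0.00427, adjusted 0.0192; Spearman rho = 0.68, permutation p = 0.00632, adjusted 0.0217), and r was 0.53 without the 2 tumors farthest from its median. Among 120 relations of the 10 genes with 12 measures of the tumors, over all 18, only that of Gpx4 with this measure passed an adjusted p of 0.05. Gpx4 is itself short, at 1522 bases, and the part of length in this relation was not tested.

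Fth1 was at 677, 733 and 689 FPKM in NKMOF-101-[Mn], at 672, 816 and 867 in M5@NKMOF-101-[Mn], and at 546, 631 and 750 in PS473@NKMOF-101-[Mn]. PBS tumors had 1039, 621 and 554 FPKM, Free PS473 tumors 543, 551 and 713, and PS473@CPs tumors 639, 642 and 608. Of the 9 framework tumors 7 exceeded all but 2 of the others, and the highest of all, PBS 1, also held the most erythroid RNA, whose part in this value was not tested. The contrast was 0.13 (SE 0.11, limma adjusted p = 0.9). It was 0.26 (SE 0.07, limma adjusted p = 0.653) without PBS 1 and Free PS473 3 and 0.07 without PBS 3. PBS 1 and Free PS473 3 were the highest of their groups, so leaving them out was bound to raise the contrast.

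Acsl4, which acts for ferroptosis, was at 6.79 ± 0.724 FPKM with the framework and 6.72 ± 0.623 FPKM without it. The full range was 5.71 to 7.77 FPKM, both ends in M5@NKMOF-101-[Mn], and the contrast was 0.01 (SE 0.07, 95% interval -0.13 to 0.16). In folds the interval ran from 0.913 to 1.11.

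Some of the genes varied together from tumor to tumor. Of the 45 pairs, 34 had a positive Pearson r. Gclm and Fth1 were the closest (r = 0.84, permutation p = 1e-05, the smallest the permutations can give, adjusted 0.00045; rho = 0.81, permutation p = 8e-05, adjusted 0.0018). Without the 2 tumors farthest from the median of Gclm r was again 0.84, and within groups, after each group's mean was taken off, it was also 0.84. Of the pairs without Hmox1, this alone passed an adjusted p of 0.05. Slc7a11 had only weak relations, with r between -0.25 and 0.37 to the other genes of the set. For Acsl4 r was between -0.41 and 0.34. Within groups r ran from -0.46 to 0.08 for Slc7a11, and for Acsl4 from -0.69, with Gclc, to 0.29. Without 2 tumors it ran from -0.45 to 0.54 for Slc7a11, and for Acsl4 from -0.60, again with Gclc, to 0.19.

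Hmox1 fell into 2 separate clusters, 11 tumors between 29.6 and 54.1 FPKM and 7 between 92.2 and 124 FPKM, with none between. Of the low tumors 5 had received the framework and of the high tumors 4. Over all tumors Hmox1 followed Srxn1 (r = 0.77, permutation p = 0.00018, adjusted 0.00405) and Gclm (r = 0.71, permutation p = 0.00081, adjusted 0.0121). With Fth1 r was 0.61 (permutation p = 0.00594, adjusted 0.0551) and rho was 0.66 (permutation p = 0.00357, adjusted 0.0402), so only rho passed the adjusted threshold. Because of the gap, several of its relations, though not that with Fth1, were also taken within each cluster. The clusters were set by the level of Hmox1 itself, which narrows its range. A relation that missed the threshold within a cluster is thus not shown to be absent. Among the low tumors Hmox1 followed Srxn1 (r = 0.86, permutation p = 0.00057, adjusted over 9 relations 0.00513; rho = 0.87, permutation p = 0.00081, adjusted 0.00729), and r was 0.84 without the 2 tumors farthest from the median of Srxn1. With Gclm r was 0.52 in the low tumors (permutation p = 0.094, adjusted 0.234; rho = 0.77, permutation p = 0.00725, adjusted 0.0217), so the result turned on the measure used, and r was 0.40 without 2 tumors. Among the 7 high tumors r was 0.40 with Srxn1 and -0.43 with Gclm, neither past the threshold (exact permutation p = 0.374 and 0.338).

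**Figure D3:**
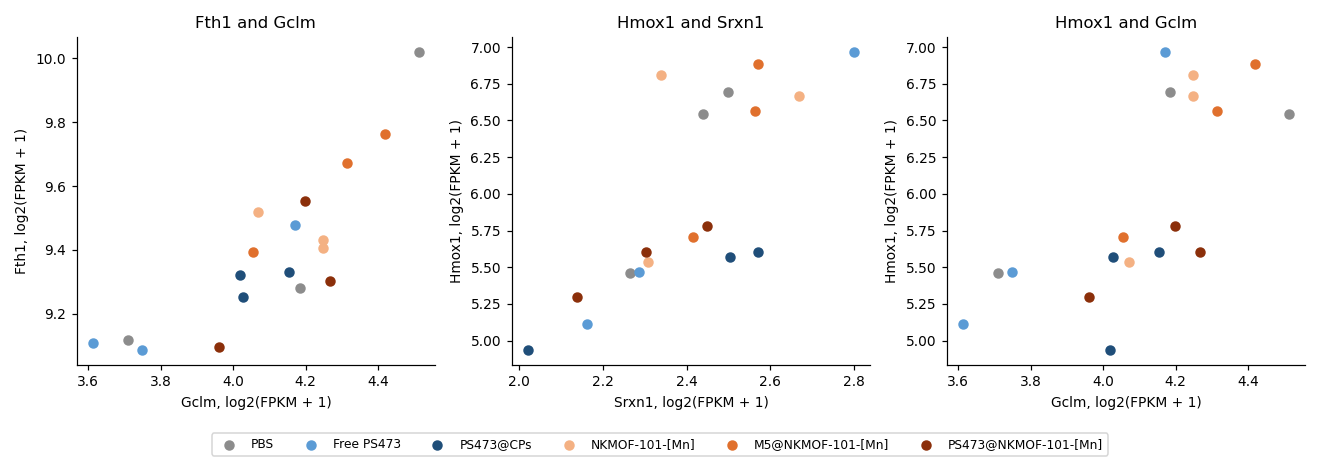
Log2(FPKM + 1) of Fth1 against Gclm, Hmox1 against Srxn1 and Hmox1 against Gclm; each point is 1 of 18 tumors, colored by group. Fth1 climbs with Gclm (r = 0.84), and the 11 low and 7 high tumors for Hmox1 form separate clouds that both hold tumors with and without the framework.

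Over all 18 tumors Hmox1 had r = 0.66 to the summed macrophage markers (permutation p = 0.00264, adjusted 0.0792), which missed the adjusted threshold. Its rho was 0.70 (permutation p = 0.00167, adjusted 0.0696), and within groups r was 0.72. Neither cluster of Hmox1 passed the test with these markers, at r = 0.51 in the 11 low tumors (permutation p = 0.104; rho = 0.51, permutation p = 0.114) and r = 0.46 in the 7 high tumors (exact permutation p = 0.300; rho = 0.39, exact permutation p = 0.396). Adjusted over the 9 relations these were 0.234 or above. Without the 2 farthest tumors r was 0.39 and 0.45. With the summed hypoxia genes r was 0.37 in the low tumors and 0.04 in the high ones (permutation p = 0.261 and, exact, 0.938). Over all 18 tumors it was 0.60 (permutation p = 0.00996, adjusted 0.199). The split by level narrows the range of Hmox1, so the values within clusters cannot decide whether either relation holds there. Srxn1 had r = 0.71 to the macrophage markers over the 18 tumors (permutation p = 0.00114, adjusted 0.0684; rho = 0.70, permutation p = 0.00174, adjusted 0.0696), which missed the adjusted threshold, and r was 0.62 without 2 tumors. All 12 macrophage markers were in the table and 11 were tested. In whole tumors, more cells of a type and more RNA per cell cannot be told apart, and the part of macrophages in these levels was not tested.

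**Figure D4:**
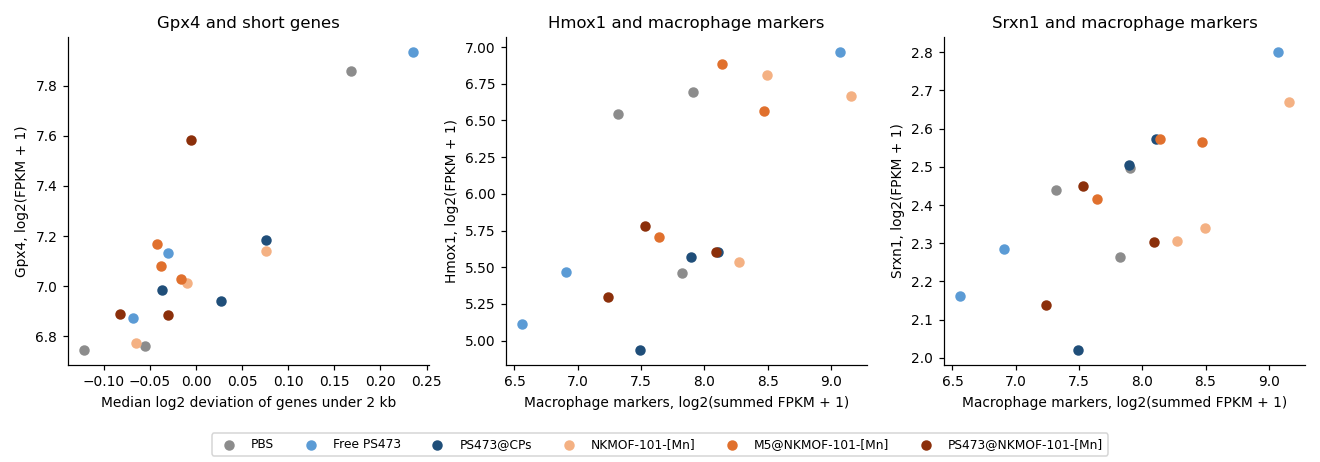
Log2(FPKM + 1) of Gpx4 against the median log2 deviation of genes under 2000 bases (left), and of Hmox1 (middle) and Srxn1 (right) against the summed FPKM of macrophage markers on a log2 scale; points are 18 tumors, colored by group. Gpx4 is highest in the 2 tumors with deviations of 0.168 and 0.235, and Hmox1 and Srxn1 are highest in Free PS473 3, at 124 and 5.96 FPKM.

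The genes outside the set that were most like each member are given as a description. They were ranked by Pearson r of log2(FPKM + 1) over the 18 tumors, among the 12357 genes tested. For Hmox1 they were Mmp12 (0.894), a macrophage elastase, Me1 (0.873), malic enzyme, and Syk (0.872), a kinase of immune receptors. For Gpx4 they were the ribosomal protein genes Rpl3 (0.963), Rplp0 (0.96) and Rpl19 (0.958). For Srxn1 they were Plin2 (0.884), a coat protein of lipid droplets, Sh3bgrl (0.867) and Pttg1ip (0.866). Gclc was nearest to Aspg (0.938), Arhgef39 (0.885) and Aire (0.876), and Gclm to Tpd52 (0.883), 4930430E12Rik (0.863) and Nampt (0.851), which makes an NAD precursor. Fth1 was nearest to Mrpl23 (0.837), Zfp729b (0.834) and Cdkn1b (0.832), and Txnrd1 to Dnmt3b (0.831), Mir3063 (0.814) and Hnrnpll (0.779). For Slc7a11 they were Phf10 (0.839), Slc6a9 (0.798), a glycine transporter, and Cul5 (0.78). Acsl4 was nearest to Tor4a (0.803), Plpp1 (0.779) and Nab1 (0.774), and Nqo1 to Tuba1c (0.782), Dynll1 (0.782) and Rps12 (0.781).

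The wider pathway gave no calls either. In 11 lists of related genes, none of the 184 genes tested was called in any comparison, and in the framework contrast 7 were higher and 2 lower at an unadjusted p under 0.05, a threshold that 4.56% of all genes passed. NRF2 itself and its partners gave 7 of 9 tested genes above 0 (median 0.05), led by Sqstm1, the adaptor that binds KEAP1, at 115 ± 15.6 against 101 ± 13.6 FPKM (log2 change 0.18, SE 0.09), and Nfe2l2, which encodes NRF2, at 22.9 ± 2.16 against 21.1 ± 2.41 FPKM (0.12, SE 0.07). Of 29 other NRF2 targets tested 21 were above 0 (median 0.04), led by the glutathione transferases Gsta2 (0.39, SE 0.19) and Gstm1 (0.20, SE 0.10). None of these genes passed even the unadjusted threshold.

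Glutathione metabolism had 16 of 21 tested genes below 0, with a median of -0.11, and its smallest p values belonged to Lap3 (0.14, SE 0.07) and Oplah (-0.17, SE 0.11). Thioredoxins, peroxiredoxins, superoxide dismutases and catalase had 16 of 23 genes below 0 (median -0.03), with Cat (0.10, SE 0.05), the catalase gene, and Msra (0.11, SE 0.06) first. Genes of selenoprotein synthesis had 11 of 15 below 0 (median -0.05). Of these Sephs2, which makes selenophosphate, was at 18.0 ± 1.59 against 20.4 ± 2.29 FPKM (-0.17, SE 0.07, unadjusted p = 0.0292, limma adjusted p = 0.9), and Eefsec, the selenocysteine elongation factor, was at 0.18 (SE 0.09).

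Among 23 ferroptosis suppressors 10 were above 0 and 13 below (median -0.04). Dhodh, the mitochondrial enzyme that reduces ubiquinone while making pyrimidines, had the smallest p of them at 4.41 ± 0.548 against 5.23 ± 0.615 FPKM (-0.20, SE 0.06, unadjusted p = 0.00697, limma adjusted p = 0.9), and Pcbp2, an iron chaperone, was at 0.14 (SE 0.06, unadjusted p = 0.0288, same adjusted p). Of 23 ferroptosis drivers tested, 4 were higher at an unadjusted p under 0.05 and 0 lower (median 0.01), beside 362 higher and 202 lower of all 12357 genes. The first were Steap3, an endosomal iron reductase, at 14.8 ± 1.37 against 12.5 ± 2.01 FPKM (0.23, SE 0.08), and Cybb, the phagocyte oxidase subunit, at 2.69 ± 1.15 against 1.60 ± 0.676 FPKM (0.49, SE 0.19), both at limma adjusted p = 0.9. Macrophage markers had a median of 0.47 over 11 genes in the same contrast, and their part in the value of Cybb was not tested.

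Genes of heme and ferritin iron were evenly divided, 7 above and 7 below 0 (median near 0), with Slc48a1 (0.13, SE 0.07) and Aco1 (0.09, SE 0.07) first. ATF4 targets, the amino acid stress genes to which Slc7a11 also belongs, had 13 of 20 above 0 (median 0.06), and Pck2 (0.31, SE 0.13, unadjusted p = 0.0356) and Trib3 (0.26, SE 0.15) led them. Metallothioneins and manganese transporters had 5 of 7 above 0 (median 0.10), led by the zinc exporter Slc30a1 (0.21, SE 0.09, unadjusted p = 0.0381) and Mt2 (0.22, SE 0.19), with Slc30a10 at 0 in every tumor. The hypoxia response had 8 of 15 above 0 (median 0.01), with Pfkfb3 (0.16, SE 0.09) and Ankrd37 (-0.26, SE 0.19) first. All had a limma adjusted p of 0.9.

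**Figure D5:**
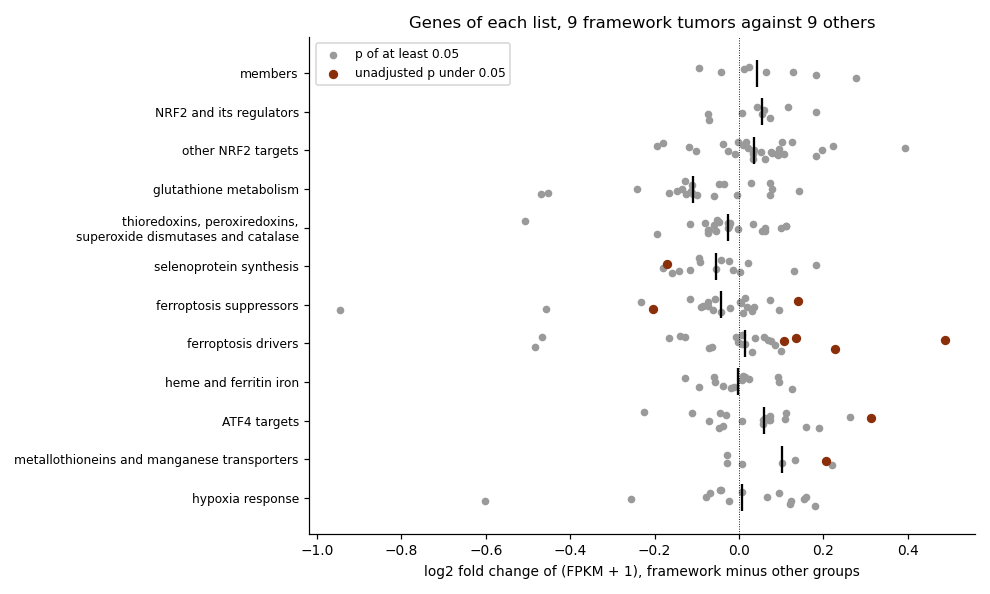
Log2 fold change of FPKM + 1 (horizontal axis) of each tested gene in the 9 framework tumors against the 9 others, by list (rows; members are the 10 genes of the set); vertical bars are medians and dark points have an unadjusted p under 0.05 in limma. List medians lie between -0.11 and 0.10, and no point was called after adjustment.

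The pairwise comparisons gave no further calls. Each of the 5 treatments against PBS, and PS473@NKMOF-101-[Mn] against PS473@CPs and against Free PS473, called 0% of the 12357 genes, as did the limma test of any difference among the 6 groups. At an unadjusted p under 0.05 Slc7a11 and Txnrd1, in the comparisons given above, were the only genes of the 10 that passed.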

How the data were processed

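RNA of 18 tumors was measured by poly(A) RNA sequencing. The authors deposited FPKM values with 1 length per gene, scaled by length and by each tumor's total of assigned fragments. The submitters' processing notes name GRCm39, and the aligner, counter and annotation are not given in the sources used here. Depth was estimated from the most frequent step between low values. Since only 47.4% to 51.5% of low values were whole fragments (within 0.02), no count model was used. Groups came from the sample records, and no 2 of the 18 tumors held mostly equal values. Log2(FPKM + 1) was fitted with limma 3.58.1 in R 4.3.3 (1 mean per group, all tumors, variance trend) over genes averaging at least 1 FPKM, or 0.1 FPKM for Nqo1 and Slc7a11, with Benjamini-Hochberg adjustment over all genes in the fit. The framework contrast sets the mean of 3 groups against that of the other 3. The code was tested on simulated data. Correlations used 100000 two-sided permutations of the tumors, adjusted within each family, with exact permutations for 7 tumors (Python 3.11.15, numpy 2.4.6, scipy 1.17.1, pandas 2.3.3). Tumors are treated as independent, and the p values measure only the spread between them.

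The members and lists were chosen with earlier results of these data known. Named genes are the 10 members and the called genes of each list, or else the 2 tested with the smallest p in the framework contrast. Also named are the 3 genes outside the set nearest to each member by correlation, and Cd274, with markers as sums. Alternatives were another pseudocount, filter, scaling, model or threshold and leaving out tumors. Rescaling to equal sums of FPKM and leaving out PBS 1 and Free PS473 3, whose short genes lay above a median of 0.1, were added after seeing the data. PBS 1 and Free PS473 3 carried no framework. For Hmox1, Gclm, Gpx4 and Fth1 each lay above its group's mean, so leaving them out was bound to raise those contrasts.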

Additional observations from a re-analysis of the deposited data

Results flagged for a closer look

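Of 20 sets of 9 tumors (the 10 genes, with and without the framework), 3 held a tumor that lay past Dixon's critical gap to the next, and chance flags about 1 set in 20. Slc7a11 was at 1.55 FPKM in PBS 2, next to 0.872 FPKM among tumors without the framework. Gpx4 was at 191 FPKM in PS473@NKMOF-101-[Mn] 3, next to 143 FPKM among framework tumors. Fth1 was at 1039 FPKM in PBS 1, next to 713 FPKM among tumors without the framework.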

How the results depend on the processing

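None of the 10 genes was called in the framework contrast under any alternative run (286 values, lowest limma adjusted p 0.304), and 6 kept 1 direction throughout. Gclc changed sign with array weights (0.0686), equal sums of FPKM (0.00703) and without the 2 tumors high in short genes (0.0248), Gpx4 without those 2 (0.131), and Acsl4 with array weights (-0.0539) and without those 2 (-0.00984). Leaving out 1 tumor at a time gave -0.0985 to 0.0115 for Gclc, -0.172 to 0.0278 for Gpx4, -0.0336 to 0.0879 for Srxn1 and -0.0134 to 0.0514 for Acsl4. Such omissions took Hmox1 to between 0.147 (without PBS 3) and 0.462 (without Free PS473 3), Fth1 to between 0.0676 (without PBS 3) and 0.218 (without PBS 1), and Gclm to between 0.112 (without PBS 3) and 0.245. For Slc7a11 in PS473@CPs against PBS the log2 difference ran from -1.46 to -0.475, with a lowest adjusted p of 0.697. Array weights were not run for the 2 scarce genes.

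Over all genes, 0 were called in all comparisons. Unadjusted p values under 0.05 came to 564 in the framework contrast, against PBS to 181 for NKMOF-101-[Mn], 187 for M5@NKMOF-101-[Mn], 260 for PS473@NKMOF-101-[Mn], 224 for Free PS473 and 258 for PS473@CPs, to 283 and 615 for PS473@NKMOF-101-[Mn] against PS473@CPs and Free PS473, and to 246 for any difference. Array weights, whose estimation did not converge, gave 122 calls for PS473@NKMOF-101-[Mn] against Free PS473, 335 for Free PS473 against PBS and 2310 for any difference. No filter gave 4 for any difference. Groups compared alone gave 1 for PS473@CPs against PBS, where leaving out 1 tumor at a time gave 0 to 1, with 1 without PS473@CPs 3. The cause was not tested.

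With the replicate number as a replicate block, 0 genes were called. Of 45 same-numbered pairs of tumors 18 had a correlation of deviations above 0.1. Their r ran from -0.73 to 0.724 with a median of -0.02, against a median of -0.005 for pairs of other numbers. No pairing was therefore assumed, and these values cannot tell whether some same-numbered tumors shared a day or batch. Fragment counts were lowest for Slc7a11 and Nqo1, at 43 to 293 and 47 to 114 per tumor.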
